A study of Mus musculus with 474 samples.

Results

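Expression of 8 genes of cholesterol synthesis was followed in skeletal muscle of female and male Diversity Outbred (DO) mice. The members were taken by gene symbol from the deposited table of 20612 genes and are Srebf2, Insig1, Hmgcs1, Idi1, Fdps, Fdft1, Sqle and Lss. All 8 passed the filter on low counts, which kept 18823 genes. DO mice are an outbred stock derived from 8 inbred founder strains, so no pair of animals shares a genome, and each animal gave 1 library. All animals ate the same high-fat, high-sugar diet, in which the labels give 45 percent fat, from soon after weaning to adulthood, and there was no group on another diet. The muscle was gastrocnemius per the study's methods. The titles give the sex and a number read here as the outbred generation (17, 18, 19, 21 or 23), which made 10 groups. In that order of generations the groups of females held 48, 45, 49, 46 and 47 animals, and those of males 46, 48, 50, 47 and 48. All 10 skeletal muscle identity genes were present in all groups, and their summed level ranged from 1.082e+05 to 2.205e+05 CPM (counts scaled to a common library total) in females and from 1.297e+05 to 2.06e+05 CPM in males.

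Total counts per library, in units of mega-counts (M), ranged from 35.9 to 165.7 M around a median of 79.3 M. The library numbers in the titles fell into 5 blocks of 91 to 96 animals, which may or may not have been handled together. In 5 libraries the sex-linked transcripts went against the labelled sex (3 labelled female, 2 labelled male). A single library, from a generation 17 female, held 853.9 CPM of hepatocyte markers, while the next highest held 22.8 CPM. The counts of members called below did not change without these 5 libraries or without that library. In bulk tissue, fewer cells of a type and less RNA per cell cannot be told apart.

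Cells make cholesterol from acetyl-CoA through mevalonate, isoprenoids and squalene. SREBP2, the product of Srebf2, is the membrane-bound transcription factor that switches on most enzymes of this route when sterols are low. INSIG1, the product of Insig1, holds the SREBP and SCAP complex in the endoplasmic reticulum when sterols are plentiful, and its own gene is an SREBP target. The other members are enzymes. Hmgcs1 makes HMG-CoA, Idi1 interconverts the isoprenoid building blocks, Fdps makes farnesyl diphosphate, Fdft1 joins farnesyl units into squalene, Sqle oxidises squalene and Lss closes the ring to give lanosterol. Skeletal muscle also needs the mevalonate route for dolichol, ubiquinone and protein prenylation, and blocking it with statins is known to harm muscle in some people.

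The promoters are shown because SREBP2 acts on these genes through short elements near their start sites. Each window has 150 bases of RefSeq sequence (GRCm38.p6, plus strand) that lie upstream of both the RefSeq and the GENCODE start of the gene. RefSeq promoters were matched for 5 of the 8 members (Insig1, Idi1, Hmgcs1, Lss and Srebf2), and 4 are printed. Capitals mark the sterol regulatory element TCACNCCAC or its shortened form TCACNCCA, the CCAAT box, the GC box GGGCGG and the E-box CACGTG, each searched on both strands. The windows are chr15:82147031-82147180 for Srebf2, chr5:28071183-28071332 for Insig1, chr13:119690201-119690350 for Hmgcs1 and chr10:76531438-76531587 for Lss.
Srebf2: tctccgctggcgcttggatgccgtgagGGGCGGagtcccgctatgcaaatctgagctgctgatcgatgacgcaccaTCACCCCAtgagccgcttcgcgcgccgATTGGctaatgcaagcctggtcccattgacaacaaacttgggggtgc
Insig1: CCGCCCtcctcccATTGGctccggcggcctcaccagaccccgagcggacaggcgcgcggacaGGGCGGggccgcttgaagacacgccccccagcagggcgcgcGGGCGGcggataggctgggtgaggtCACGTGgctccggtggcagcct
Hmgcs1: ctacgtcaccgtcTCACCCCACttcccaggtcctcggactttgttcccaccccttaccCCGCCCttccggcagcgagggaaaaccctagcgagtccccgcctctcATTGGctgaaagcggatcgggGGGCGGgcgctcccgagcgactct
Lss: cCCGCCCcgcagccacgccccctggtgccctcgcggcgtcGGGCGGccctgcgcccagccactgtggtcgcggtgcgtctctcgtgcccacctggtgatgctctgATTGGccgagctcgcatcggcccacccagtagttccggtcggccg
Over the whole promoter of 300 bases, TCACNCCAC was found in Hmgcs1 alone among the 5, with its first base at -137 from the RefSeq start, and in 1.24% of 32851 promoters. The shortened form, which was searched after the first result was seen and is contained in the longer one, was found in Hmgcs1 and in Srebf2 at -162, and in 4.36% of promoters. Each of the 5 held a CCAAT box and a GC box, which 37.4% and 35.7% of promoters hold. Insig1 alone held the E-box, at -101, against 7.15% of promoters. A match is a description of letters and shows no binding.

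The genes lie on 6 chromosomes (GRCm38, positions as deposited). Srebf2 (ENSMUSG00000022463) is at chr15:82147181-82205379 on the plus strand and hosts Mir33. Insig1 (ENSMUSG00000045294) is at chr5:28071363-28078662, plus strand. Hmgcs1 (ENSMUSG00000093930) is at chr13:119690379-119708260 and Idi1 (ENSMUSG00000058258) at chr13:8885501-8892451, both on the plus strand. Fdps (ENSMUSG00000059743) is at chr3:89093588-89101959 on the minus strand. Fdft1 (ENSMUSG00000021273) is at chr14:63145150-63179578, minus strand, and overlaps Ctsb on the other strand. Sqle (ENSMUSG00000022351) is at chr15:59315077-59331192, plus strand. Lss (ENSMUSG00000033105) is at chr10:76531588-76557138, plus strand, and overlaps the antisense gene 4930483K19Rik. Use of strand in the counting was not stated, so reads of overlapping genes could be shared. Ctsb had a median of 242.2 CPM, and its level had Pearson r = 0.09 and Spearman rho = 0.05 with Fdft1 over all animals. Sharing of reads was not tested. 4930483K19Rik had medians of 0.0124 to 0.0539 CPM in the groups of animals with low to high Lss described below.

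The regulators were expressed at moderate levels. Srebf2 ran from 7.69 through a median of 14.4 to 30.9 CPM in females and from 8.48 through 14.1 to 21.6 CPM in males. Insig1 ran from 6.33 through 11.96 to 47.2 CPM in females and from 6.45 through 13.3 to 32.1 CPM in males. The sexes overlapped almost entirely for both genes, and the upper end of each was held by females.

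Among the early enzymes, Hmgcs1 ran from 25.4 through 33.9 to 66.1 CPM in females and from 22.3 through 33.1 to 57.3 CPM in males. Idi1 ran from 4.84 through 8.04 to 15.3 CPM in females and from 5.18 through 7.71 to 13.2 CPM in males. Fdps ran from 9.17 through 14.7 to 19.1 CPM in females and from 9.71 through 14.1 to 19.6 CPM in males. These 3 enzymes act before squalene, and the medians of both sexes lay close together for each.

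Among the enzymes of squalene and beyond, Fdft1 ran from 29.8 through 45.7 to 76.3 CPM in females and from 29.0 through 47.8 to 75.2 CPM in males. Sqle ran from 0.757 through 1.68 to 4.91 CPM in females and from 0.839 through 1.71 to 5.61 CPM in males. Lss ran from 2.82 through 4.98 to 16.6 CPM in females and from 3.44 through 5.37 to 14.6 CPM in males. Sqle had the lowest counts of the 8, starting at 45 in a library, and Fdft1 the highest, from 1851 to 7675.

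**Figure D1:**
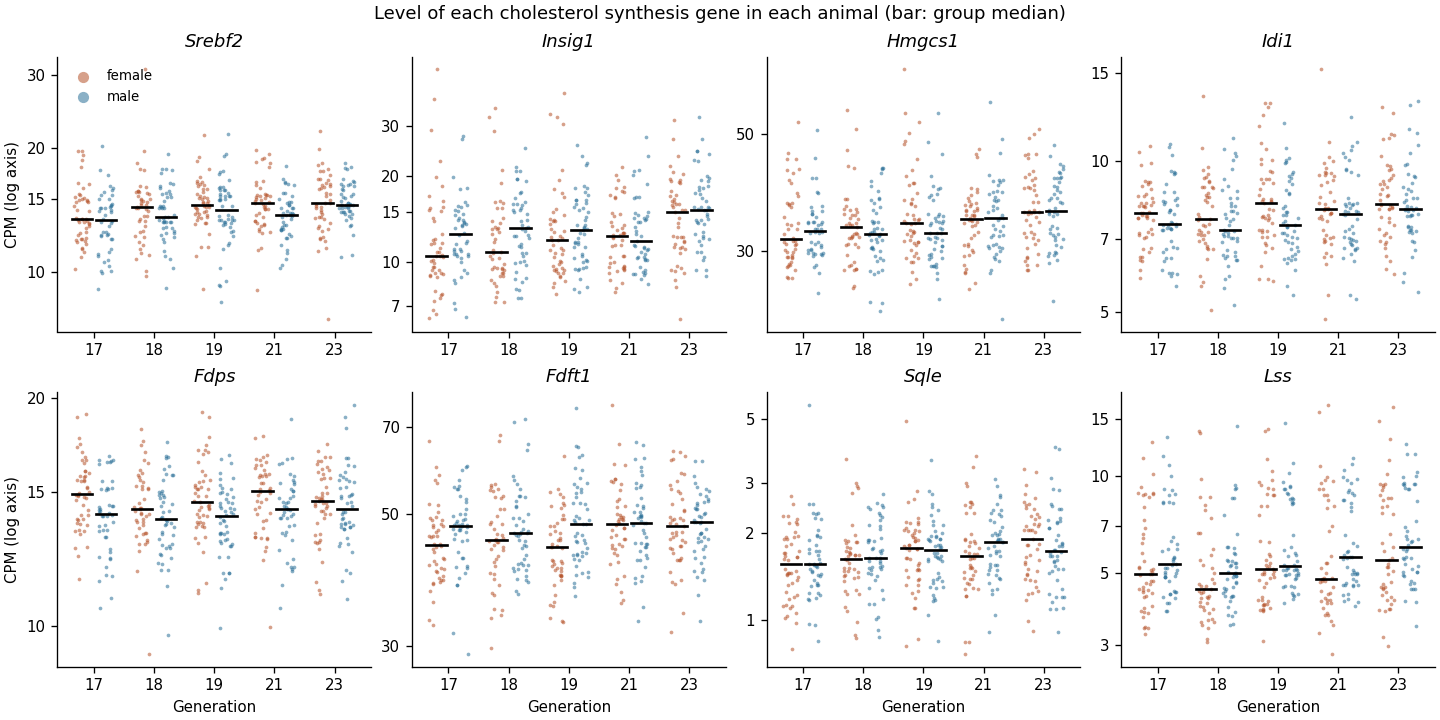
Each point is 1 animal, the vertical axis is the level in CPM on a log axis, the horizontal axis is the generation, colours separate females and males, and black bars are group medians. The sexes and generations overlap throughout, Insig1 has single animals far above the rest (up to 47.2 CPM), and Lss has a second band of animals above its main band.

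Levels of different genes can be compared only per length. The length used was that of the pooled exons of all protein-coding transcripts in the GENCODE basic set. Per kilobase of it, median levels were 12.6 CPM for Fdft1, 9.87 for Fdps, 9.66 for Hmgcs1, 4.63 for Insig1, 2.81 for Srebf2, 2.60 for Idi1, 1.11 for Lss and 0.616 for Sqle. Fdft1 exceeded Fdps in 91.1% of animals, Hmgcs1 exceeded Insig1 in 99.4%, and Insig1 exceeded Srebf2 in 97.3%. Idi1 exceeded Lss in 97.47% and Lss exceeded Sqle in 97.05%. Neighbours in this order that were not well separated were Fdps, which exceeded Hmgcs1 in 53.8% of animals, and Srebf2, which exceeded Idi1 in 65.4%. With the length of all annotated exons, Fdps fell to 3.41 CPM per kilobase, behind Hmgcs1 and Insig1, and Idi1 passed Srebf2 (2.24 against 1.99). Sqle and Lss, which act in succession, were lowest under both lengths.

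The spread over animals differed widely between members. The highest animal exceeded the lowest by 7.45-fold for Insig1, 7.41-fold for Sqle, 5.90-fold for Lss, 4.02-fold for Srebf2, 3.16-fold for Idi1, 2.97-fold for Hmgcs1, 2.63-fold for Fdft1 and 2.14-fold for Fdps. The SD of the variance-stabilised (VST) score, a near-log2 scale, after removal of sex and generation was at the 90.8 percentile of all genes tested for Insig1 and at 90.1 for Lss. Sqle was at 67.5, Hmgcs1 at 58.6, Fdft1 at 57.8, Idi1 at 55.96 and Srebf2 at 45.1. Fdps was at 9.33, so this enzyme varied less between animals than most genes did. The spread of Sqle includes more counting error than that of the others, because its counts were lowest.

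Differences between the sexes were small. Of the 8 members, 1 was called higher and 3 lower in males (edgeR quasi-likelihood test with generation as covariate, adjusted p under 0.05 over 18823 genes). Over all genes 24.4% were called higher and 30.6% lower in males, so the shares of members were near the background. Fdps was 14.7 ± 1.62 CPM (SD) in females and 14.1 ± 1.61 CPM in males, which is -0.06 ± 0.02 (SE) on the log2 scale, male minus female (adjusted p = 1.1e-04, edgeR). Srebf2 was 14.6 ± 2.50 and 14.0 ± 2.14 CPM (-0.06 ± 0.02, adjusted p = 0.0174), and Idi1 was 8.24 ± 1.58 and 7.91 ± 1.46 CPM (-0.06 ± 0.02, adjusted p = 0.0265). Fdft1, in contrast, was 46.4 ± 7.61 CPM in females and 48.2 ± 7.50 CPM in males (0.06 ± 0.02, adjusted p = 0.0167). These differences were 1.039-fold to 1.045-fold and far smaller than the spread between animals of 1 sex.

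The sign of these differences held in 5 of 5 generations for Fdps, Srebf2 and Idi1 and in 3 of 5 for Fdft1. Within library blocks, the log2 difference ranged from -0.11 to -0.01 for Fdps, from -0.07 to -0.02 for Srebf2, from -0.11 to -0.01 for Idi1 and from 0.01 to 0.13 for Fdft1. At most 1 member passed the test within any block, and with the block as a further covariate Srebf2 no longer passed (adjusted p = 0.051). Scaling by total count alone ended the call of Fdft1 (0.02, adjusted p = 0.31) and added Hmgcs1 (-0.07, adjusted p = 0.0076); under this scaling 30.8% of all called genes were higher in males, against 44.3%, and the median of all genes moved from -0.01 to -0.05. With scores for cell and fibre types in the model, the difference of Idi1 was close to its earlier size but did not pass (-0.05, adjusted p = 0.193), that of Fdft1 was near 0 (0.0076, adjusted p = 0.846), Insig1 was called (0.18, adjusted p = 2e-04), and 3 members passed.

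The other 4 members did not pass. The log2 difference, male minus female, was 0.02 ± 0.04 for Sqle (SE, adjusted p = 0.702, edgeR), 0.04 ± 0.04 for Insig1 (0.418), -0.03 ± 0.02 for Hmgcs1 (0.21) and 0.05 ± 0.05 for Lss (0.367). After the median of each generation was subtracted, the medians of Lss did differ on the VST scale by 0.09. This test, chosen after the uneven distribution of Lss was seen, permuted sex labels within generation (100000 resamples, 2-sided, permutation p = 0.003). Within blocks this difference was 0.10, -0.01, 0.01, 0.10 and 0.19, with permutation p = 0.0429, 0.813, 0.719, 0.189 and 0.0285.

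Other genes of the pathway were called between the sexes in both directions. Of 18 other enzymes of sterol synthesis, 2 were higher and 10 lower in males, 6 did not pass, and the median log2 difference was -0.07, against -0.01 over all genes. The median size of the log2 difference, whatever its sign, was 0.0819 for these enzymes, 0.0539 for the 8 members and 0.0937 for all genes, so the named enzymes with differences near 0.3 are the extremes of the list. Tm7sf2, a sterol reductase, was 2.52 ± 0.551 CPM in females and 2.04 ± 0.458 CPM in males (-0.30 ± 0.03). Acat2, which makes acetoacetyl-CoA, fell by 0.27 on the log2 scale. Cyp51 (-0.13, adjusted p = 6.1e-04) and Dhcr7 (-0.08, adjusted p = 0.0075), enzymes after lanosterol, were also lower in males (edgeR). Hsd17b7, a ketosteroid reductase, was higher in males (0.33 ± 0.06). Mvd (0.06, adjusted p = 0.136) and Msmo1 (0.03, adjusted p = 0.351) did not pass.

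Among 10 genes tied to SREBP processing, 7 were higher and 2 lower in males, with a median of 0.07 and a median size of 0.0764. Srebf1, which encodes the SREBP that governs fatty acid synthesis, rose from 34.3 ± 11.99 to 45.2 ± 17.97 CPM (0.40 ± 0.05). Insig2 (0.08), Scap (0.05) and Paqr3 (0.16) were higher in males by less. So the paralogue Srebf1 was higher in males and Srebf2 lower, although by very different amounts.

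Among 13 genes of cholesterol uptake and transport that were tested, 4 were higher and 6 lower in males. Npc1, which exports cholesterol from lysosomes, was 53.9 ± 22.5 CPM in females and 87.6 ± 34.2 CPM in males (0.70 ± 0.05, adjusted p = 9.2e-35, edgeR). Gramd1a (0.30) was also higher in males, and Stard4 did not pass (0.09, adjusted p = 0.0647). Of 12 genes of efflux, esterification and oxysterols, 1 was higher (Cyp27a1, 0.21) and 3 were lower in males, among them Nr1h3 (-0.23) and Apoe (-0.20).

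Of the 5 pathway lists, fatty acid synthesis had the median farthest from 0. Of its 15 genes, 2 were higher and 11 lower in males, and the median was -0.23. Elovl6 was 5.55 ± 9.63 CPM in females and 1.87 ± 2.02 CPM in males (-1.58 ± 0.13), Fasn had means of 127.8 and 54.4 CPM with wide spreads (-1.25 ± 0.12), and Pnpla3 17.2 ± 9.93 and 8.73 ± 4.96 CPM (-0.98 ± 0.08). Adipocyte markers were lower in males in 8 of 9 genes and higher in 1, with none at 0 in any library; their summed level ran from 111.2 through a median of 297.1 to 1657 CPM in females and from 123.6 through 259.7 to 953 CPM in males. Of 9 slow fibre genes all were lower in males, with a median summed level of 3688 CPM in females (up to 9976) and 2544 CPM in males (up to 8239), and of 10 endothelial markers 9 were higher. The part of fat cell, fibre type or vessel RNA in these differences was examined only by the model with scores above. That model was fitted to every gene, with 44.1% called between the sexes, and is reported gene by gene for members alone.

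**Figure D2:**
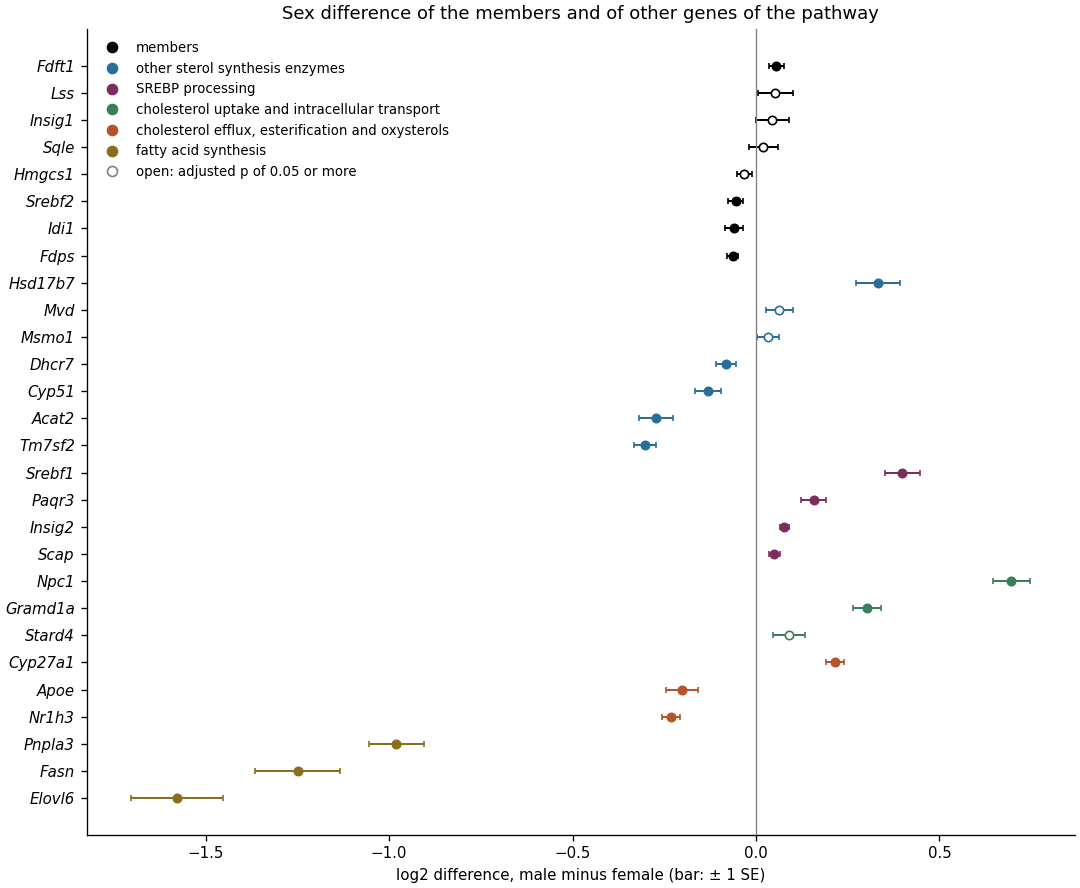
Points are log2 differences, male minus female, with bars of 1 SE, for the 8 members and for named genes of the pathway, coloured by gene list; open points did not pass at an adjusted p of 0.05. The members lie within 0.06 of 0, while Npc1 lies at 0.70 and Elovl6 at -1.58.

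Between generations, Insig1 and Lss changed. Medians of Insig1 were 11.4, 12.4, 12.2, 12.2 and 15.2 CPM in generations 17, 18, 19, 21 and 23, and those of Lss were 5.15, 4.81, 5.20, 5.19 and 5.88 CPM. The range of the fitted levels was 0.25 on the log2 scale for Insig1 (adjusted p = 0.0213) and 0.31 for Lss (adjusted p = 0.0221, edgeR with sex as covariate). These are 2 of 8 members, against 7.56% of all genes. Hmgcs1 (0.12, adjusted p = 0.0526), Idi1 (0.12, 0.0886), Srebf2 (0.12, 0.0981), Sqle (0.20, 0.142), Fdft1 (0.07, 0.365) and Fdps (0.03, 0.804) did not pass. Neither passed with cell and fibre type scores in the model, where the range was smaller for Insig1 (0.16, adjusted p = 0.308) and about as large as before for Lss (0.28, adjusted p = 0.0907), and 0 members passed within any single block. In the pathway, Msmo1 (0.27, adjusted p = 2.3e-06), Rnf145 and Npc2 also differed between generations.

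The sex difference did not depend detectably on generation for any member. The interaction was called for 0 of 8 members (adjusted p from 0.909 to 1) against 0.531% of genes. In the main edgeR fit, DESeq2 and limma 0 members had an unadjusted p under 0.05, and with total-count scaling in edgeR 1 had. Library blocks differed in 5 of 8 members, against 47.4% of genes. The range between blocks was 0.20 for Fdps, 0.18 for Srebf2, 0.18 for Idi1, 0.11 for Hmgcs1 and 0.20 for Insig1 on the log2 scale, against sex differences of at most 0.06 in size for the same genes. Fdps, for example, had a median of 13.3 CPM in block 1 and 15.2 CPM in block 4. Sqle, Fdft1 and Lss did not pass between blocks.

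Lss stood apart from the other members in the shape of its distribution. Its levels fell into 3 clusters, of 340, 122 and 12 animals (71.7%, 25.7% and 2.53%). The lowest cluster ran from 2.82 to 7.02 CPM with a median of 4.81, the middle from 7.24 to 12.7 CPM with a median of 9.07, and the highest from 13.01 to 16.6 CPM with a median of 14.1. The clusters were divided at the minima of a smoothed density, at VST scores of 9.49 and 10.19. Of the 2 minima the lower fell to below 50% of the smaller neighbouring peak, and none of the other 7 genes had such a minimum. The upper minimum was shallower, so the highest cluster of 12 animals is less clearly set apart. Shallow minima were also found in other members, 3 for Insig1 and 1 each for Sqle and Srebf2. Within 0.1 of the lower cut lay 18 animals and within 0.1 of the upper cut 6, so some assignments are uncertain.

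Both sexes and all generations held all 3 clusters. The middle cluster held 24.7% of females and 26.8% of males, and the highest held 9 females and 3 males. By generation, the middle cluster held 24.5%, 12.9%, 28.3%, 30.1% and 32.6% of animals in generations 17, 18, 19, 21 and 23, and the highest held 1.06%, 3.23%, 3.03%, 2.15% and 3.16%. Generation 18, with the fewest animals in the middle cluster, also had the lowest median of Lss. By block, the middle cluster held 22.9% to 31.9% of animals. The clusters were defined by the level of Lss, so these shares are given without a test.

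**Figure D3:**
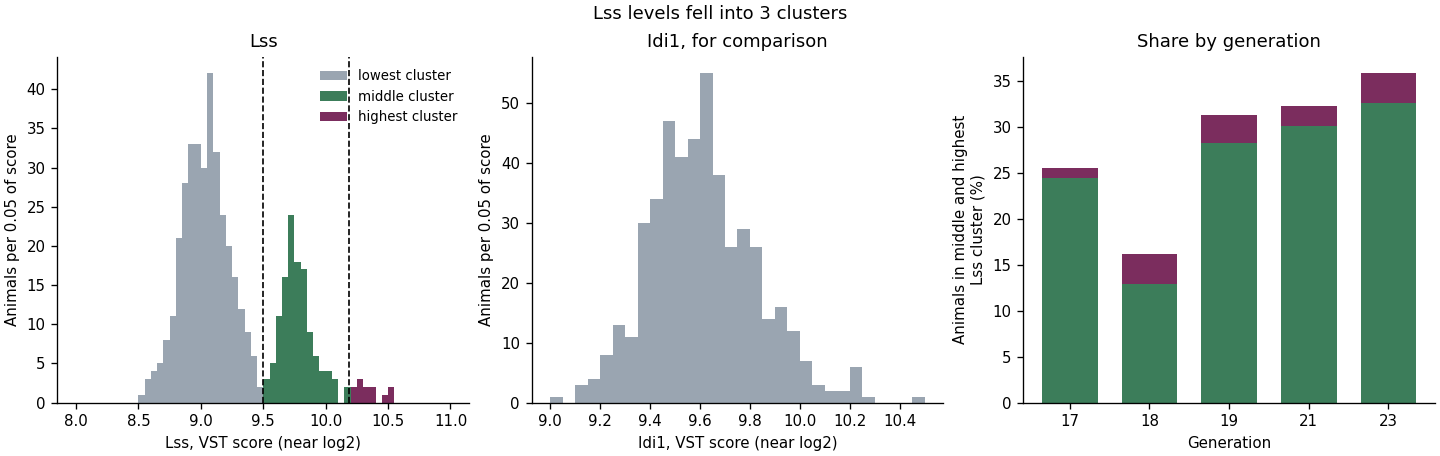
The left panel is a histogram of the Lss VST score over all animals with both cuts as dashed lines and colours for the 3 clusters, the middle panel the same for Idi1, and the right panel the share (%) of animals in the middle and highest clusters by generation. Lss has a main peak of 340 animals, a second of 122 and a small upper group of 12 beyond a shallow minimum, while Idi1 has 1 peak. Insig1, Sqle and Srebf2, which have shallow minima, are not drawn.

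Members were correlated over animals on the VST score after sex and generation were removed. Because of the clusters, relations with Lss were computed within each of them and not over all animals, which gave 42 relations in all (21 pairs of the other 7 genes, and 7 in each of 3 clusters). Of these, 14 were positive and 6 negative at an adjusted p under 0.05 (permutation test, 100000 resamples, 2-sided). The share that passes among pairs of other genes was not measured, so these counts have no background. The median r of the 21 pairs was 0.0741, with 13 of them positive. It was 0.216 with total-count scaling (17 positive) and 0.191 with the first 3 principal components of all other genes removed (16 positive), and it was 0.042 in females and 0.216 in males, a difference that was not tested. By generation it ran from -0.0217 in generation 21 (10 positive), where alone it was below 0, to 0.209 in generation 18.

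A set of 4 genes, named after the values were seen, moved together, namely Insig1, Hmgcs1, Idi1 and Sqle. The closest pair was Insig1 and Hmgcs1 (Pearson r = 0.53, Spearman rho = 0.42, 0.50 without the 2 most extreme animals). It held in each block (0.43 to 0.73) and each generation (0.49 to 0.58). Idi1 and Hmgcs1 followed (r = 0.48, rho = 0.41, blocks 0.18 to 0.57, generations 0.33 to 0.55, and 0.26 with 3 components removed), then Sqle and Insig1 (0.43, rho = 0.39, blocks 0.34 to 0.55, generations 0.36 to 0.55) and Sqle and Hmgcs1 (0.37, rho = 0.35, blocks 0.20 to 0.55, generations 0.24 to 0.51). Insig1 and Idi1 had r = 0.29 (rho = 0.24, blocks 0.17 to 0.45, generations 0.19 to 0.40). Sqle and Idi1 had r = 0.28 (rho = 0.26, blocks 0.23 to 0.33), but by generation their r ranged from 0.0052 to 0.45, so the relation was not seen in every generation. Each of these 6 had an adjusted permutation p of 3.8e-05, near the smallest that the resampling allows.

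Among the 6 other members outside Lss, Srebf2 was positively related to 3, which were Sqle (r = 0.34, rho = 0.35, blocks 0.12 to 0.56, generations 0.14 to 0.49), Insig1 (0.29, rho = 0.28, blocks 0.17 to 0.50, generations 0.15 to 0.39) and Fdps (0.28, rho = 0.23, blocks 0.0034 to 0.44, generations 0.22 to 0.42), each with an adjusted permutation p of 3.8e-05. With Hmgcs1 (r = -0.04, rho = 0.02, adjusted permutation p = 0.512) and Idi1 (r = -0.03, rho = 0.03, adjusted permutation p = 0.652) no relation was detected, and within blocks both signs occurred (-0.30 to 0.28 and -0.26 to 0.28). With total-count scaling both were positive (0.16 and 0.13), as they were with 3 principal components removed (0.14 and 0.28). Srebf2, Idi1, Hmgcs1 and Fdps were related to the second component of all genes (r = -0.48, 0.55, 0.46 and -0.47), negatively for Srebf2 and Fdps and positively for Idi1 and Hmgcs1.

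Fdft1 was negatively related to 4 of the other members, and no positive relation of it passed. Its relation to Srebf2 was negative (r = -0.27, rho = -0.26, -0.28 without 2 animals, adjusted permutation p = 3.8e-05) in every block (-0.38 to -0.24) and every generation (-0.39 to -0.14). It became weak with total-count scaling (-0.08, adjusted permutation p = 0.124). Fdft1 was also negatively related to Sqle (-0.20, rho = -0.18, adjusted permutation p = 9e-05), Idi1 (-0.14, rho = -0.15, adjusted permutation p = 0.0055) and Hmgcs1 (-0.12, rho = -0.11, adjusted permutation p = 0.0177). The last did not pass with total-count scaling (-0.09, adjusted permutation p = 0.072), with cell and fibre type scores removed (-0.07, 0.224) or with 3 components removed (-0.09, 0.093). With Insig1 (-0.07) and Fdps (0.04) it did not pass. Fdps rose with Insig1 (r = 0.21, rho = 0.19, blocks 0.11 to 0.29, generations 0.025 to 0.32, adjusted permutation p = 7e-05) and was weakly negative with Hmgcs1 (-0.12, rho = -0.09, adjusted permutation p = 0.0195), a sign that turned with total-count scaling (0.03) and with 3 components removed (0.15). Fdps did not pass with Sqle (0.07) or Idi1 (0.02). With 3 components removed both passed (0.19 and 0.40), and with total-count scaling Sqle did (0.22).

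Within its lowest cluster, Lss rose with Insig1 (r = 0.39, rho = 0.34, n = 340, blocks 0.25 to 0.50), Hmgcs1 (0.23, rho = 0.22), Sqle (0.20, rho = 0.18) and Srebf2 (0.16, rho = 0.18), with adjusted permutation p of 3.8e-05, 9e-05, 8.1e-04 and 0.0072. These are the animals with 2.82 to 7.02 CPM of Lss. With Idi1 (0.08), Fdps (0.06) and Fdft1 (-0.05) it did not pass. After cell and fibre type scores were also removed, only the relation to Insig1 still passed (r = 0.19). In the middle cluster none of the 7 relations passed (r from -0.03 to 0.09, n = 122), although with total-count scaling Insig1 (0.22), Fdps (0.20) and Srebf2 (0.31) did, and whether these differ from the lowest cluster was not tested. In the 12 animals of the highest cluster Srebf2 had r = -0.72 (rho = -0.60, adjusted permutation p = 0.0154), which fell to -0.33 without 2 animals and rests on them.

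**Figure D4:**
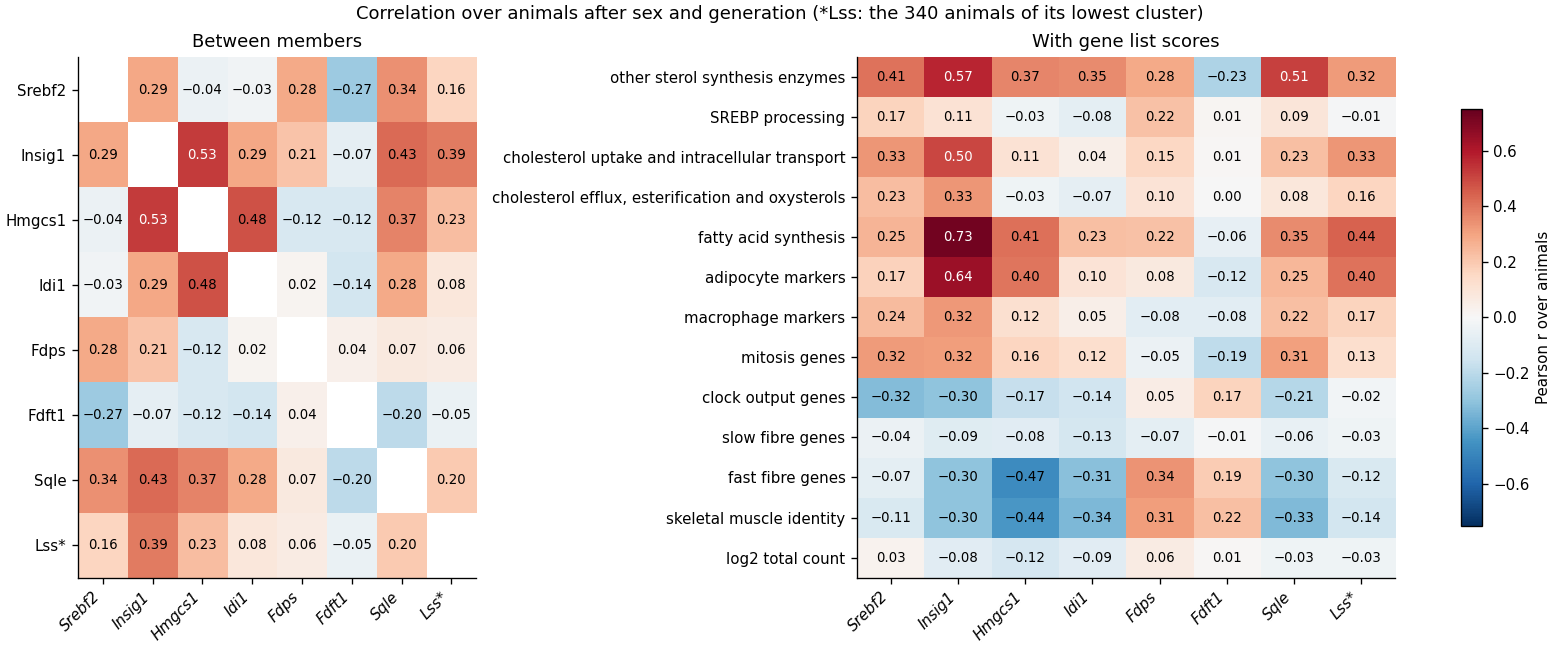
Pearson r over animals, after sex and generation, between members (left) and of members with the mean score of gene lists and with the log2 total count (right); red is positive, blue negative, and Lss is shown for the 340 animals of its lowest cluster. Insig1, Hmgcs1, Idi1 and Sqle form a positive set with r up to 0.53, the row of Fdft1 is mostly negative, and Insig1 reaches 0.73 with fatty acid synthesis.

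Each member was also set against the mean score of 18 gene lists and the total count, which gave 190 relations, again with Lss in clusters. Of these 60 were positive and 23 negative at an adjusted permutation p under 0.05, and the share for other genes was not measured. Of the called relations, 34 had an absolute r of at least 0.3 (adjusted permutation p = 4.1e-05 for the 33 of these outside the highest cluster of Lss). In the 12 animals of that cluster Lss fell with mitosis genes (r = -0.66, rho = -0.72, adjusted permutation p = 0.0437). The 18 other enzymes of sterol synthesis rose with Insig1 (r = 0.57, rho = 0.50), Sqle (0.51, rho = 0.44), Srebf2 (0.41, rho = 0.34), Hmgcs1 (0.37, rho = 0.30), Idi1 (0.35, rho = 0.34) and Lss in its lowest cluster (0.32, rho = 0.32). Fdps was also positive with them (0.28, rho = 0.30), while for Fdft1 the relation was negative (-0.23).

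Insig1 was most closely tied to lipid synthesis and fat markers. Its r was 0.73 with fatty acid synthesis (rho = 0.68, blocks 0.69 to 0.77), 0.64 with adipocyte markers (rho = 0.59, blocks 0.53 to 0.78) and 0.50 with cholesterol uptake (rho = 0.46, blocks 0.44 to 0.63). It was also related to efflux genes (0.33), macrophage markers (0.32), mitosis genes (0.32), the 2 tested hepatocyte markers (0.31), clock output genes (-0.30) and fast fibre genes (-0.30). Hmgcs1 rose with fatty acid synthesis (0.41, rho = 0.33) and adipocyte markers (0.40, rho = 0.34). Lss did so within its lowest cluster (0.44, rho = 0.41 and 0.40, rho = 0.38). After the cell and fibre type scores were removed, Insig1 and Hmgcs1 still had r = 0.40. The adipocyte markers Adipoq and Plin1 had medians of 15.6 and 13.5 CPM, from 1.13 to 94.6 and from 1.42 to 122.1 CPM, and whether fat cells within the muscle carried the variation of Insig1 was not tested.

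Fibre and muscle genes divided the enzymes. Hmgcs1 fell with fast fibre genes (r = -0.47, rho = -0.47, blocks -0.75 to -0.33) and with skeletal muscle identity genes (-0.44, rho = -0.43). Idi1 (-0.31 and -0.34) and Sqle (-0.30 and -0.33) did likewise. Fdps rose with both lists (0.34 and 0.31). The part of fibre composition in these relations was not tested. Srebf2 was related to uptake genes (0.33, rho = 0.24), mitosis genes (0.32, rho = 0.17, -0.03 in the first block) and clock output genes (-0.32, rho = -0.32, blocks -0.49 to -0.24). Fdft1 had no relation of 0.3 or more, and no called relation of that size was found with Schwann cell, fibro-adipogenic progenitor, endothelial, erythroid, slow fibre or fasting response genes.

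Single genes of the pathway showed the same division. Msmo1, which demethylates sterols, had r = 0.56 with Sqle (rho = 0.48), 0.42 with Idi1, 0.41 with Insig1, 0.40 with Hmgcs1 and -0.20 with Fdft1. Srebf1 rose with Fdps (0.43, rho = 0.42), Srebf2 (0.43, rho = 0.40) and Insig1 (0.41, rho = 0.40), but not detectably with Idi1 (0.01). Scap, which escorts SREBPs, rose with Srebf2 (0.42, rho = 0.27) and Fdps (0.35, rho = 0.24) and fell with Idi1 (-0.42, rho = -0.34) and Hmgcs1 (-0.37, rho = -0.32). Insig2 did the reverse for Srebf2 (-0.39, rho = -0.32) and Idi1 (0.32, rho = 0.24). Of 110 such relations 66 passed (adjusted permutation p under 0.05), and the share for other genes was not measured.

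Across all other genes tested, 70 of 18815 (0.372%) had a mean Pearson r with the 8 members of at least 0.2, here with Lss over all animals. The highest included Scd2 (0.32), Slc25a1 (0.27), Agpat2 (0.26), Fasn (0.26), Elovl6 (0.26), Hsd17b12 (0.26), G6pdx (0.26), Acat2 (0.25) and Acly (0.25). Scd2 and Elovl6 desaturate and elongate fatty acids, Slc25a1 exports citrate from mitochondria and Acly cleaves it to acetyl-CoA, and G6pdx yields NADPH. For each of these 9 the highest single value was with Insig1, at r = 0.74 for Agpat2 and r = 0.73 for Slc25a1, and these 9 were negative with Fdft1 (-0.16 to -0.02). The lowest included Calcoco1 (-0.16), Psmd4 (-0.16), Dcaf8 (-0.16) and Pxn (-0.15). These are descriptions over all animals with no test.

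The genes most like the members differed from member to member. By Spearman rho the closest was Msmo1 for Sqle (0.48), Slc25a1 for Insig1 (0.67), Mtpn for Idi1 (0.47), Lpgat1 for Hmgcs1 (0.60), Elp3 for Fdft1 (0.42) and Clk4 for Srebf2 (-0.52). Elp3 lies 2.39 Mb from Fdft1. Of the 20 genes most like Fdft1, 3 lay within 10 Mb of it, where 1.12% of all genes tested lie, and 1 did for Sqle, where 0.383% lie. For Insig1, Idi1, Hmgcs1, Fdps and Srebf2 the number was 0, where 0.234% to 1.65% of genes lie.

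For Lss, 19 of the 20 most like genes lay within 10 Mb on chromosome 10, where 1.33% of all genes tested lie. Within 10 Mb, 20 of 250 genes (8%) had an absolute rho over 0.3, while 0 did between 10 and 30 Mb and 1 of 17985 did on other chromosomes. The last was Rps15-ps2 (0.53), a pseudogene on chromosome 6 whose parent gene Rps15 lies near Lss, so their reads may have been divided between copies. Zfp873 (0.46), Gm9978 (0.44) and Pcdh15 (0.41) rose with Lss, and Rps15 (-0.44) and Snrpd3 (-0.42) fell. Within the lowest cluster of Lss the values were smaller, at 0.23 for Rps15-ps2, 0.21 for Zfp873, 0.20 for Gm9978, 0.10 for Pcdh15, -0.10 for Rps15 and -0.15 for Snrpd3. In the middle cluster they were 0.14, 0.09, 0.09, 0.15, -0.01 and -0.28 in the same order. The clusters were cut on the level of Lss, and a narrower range by itself lowers such values. These values are over animals that differ in founder genome at linked positions, and genotypes were not analysed here.

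**Figure D5:**
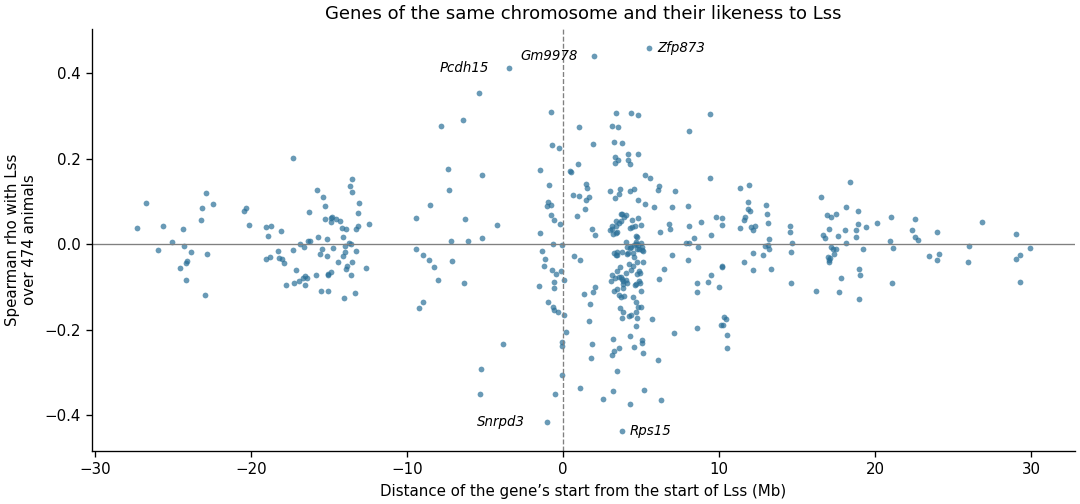
Each point is a tested gene on the chromosome of Lss within 30 Mb, the horizontal axis is the distance of its start from that of Lss in Mb, and the vertical axis is its Spearman rho with Lss over all animals. Values beyond 0.3 in size, such as 0.46 for Zfp873 and -0.44 for Rps15, lie within 10 Mb of Lss, and between 10 and 30 Mb there are none.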

How the data were processed

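RNA-seq was performed on polyadenylated RNA of skeletal muscle, 1 library per animal. To make the first table the authors treated the 2 mates of a pair as separate single reads, aligned them to the pooled founder transcriptomes and ran EMASE in GBRS, so the deposited expected counts hold read ends. They are not normalised, and 68.6% were whole numbers. The second deposited table is a score near log2, made by the authors with the variance stabilising transform (VST) in DESeq2, from 5.24 to 22.9. Per the labels the build was GRCm38, and 99.2% of deposited positions equalled GENCODE M21, which gave lengths and types. Versions of the alignment, counting and VST software and the use of strand were not given in the sources used here. Columns were matched by animal name, although DO048 with DO308 and DO309 with DO310 are swapped in order. Wave, a covariate of the study, is not in the labels. That the title number is the generation is an assumption.

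Expected counts were rounded and fitted in R 4.3.3 with edgeR 4.0.16 (TMM scaling, filterByExpr over 10 groups of sex and generation at a minimum count of 10, quasi-likelihood F-test, Benjamini-Hochberg adjustment over 18823 genes, threshold 0.05). DESeq2 1.42.0 and limma 3.58.1 were alternatives. The functions for the count fits and for the correlations with their permutation test were tried on simulated data, and the other steps were not. Of 50 genes with a simulated sex difference of 0.1 on the log2 scale, 30% were recovered. CPM used TMM-scaled totals. Correlations used the deposited VST after sex and generation were removed by least squares, with 100000 resamples in Python 3.11.15 (numpy 2.4.6, scipy 1.17.1), the smallest possible p being 1e-05, and adjustment over the relations computed. Pearson r without 2 animals leaves out the 2 farthest from the median of the first gene. Clusters of Lss were divided at minima of a Gaussian density with a bandwidth of 0.08 VST. The rule for named genes was all members, 12 pathway genes set by name, the 3 with the largest sex difference of each pathway list among those called with 1 sign in all 5 generations, and the 10 highest and 5 lowest genes by mean r with the members; some of these are not reported here. Other pathway genes and the single genes most like each member are named beyond that rule, after their values were seen. The members and lists were chosen with earlier results of these data known. The clusters of Lss, its median test, the removal of 3 principal components (5.82%, 4.97% and 2.48% of variance) and the fit without the hepatocyte-rich library were added after seeing the data; with the clusters, 42 relations replaced the 28 pairs first planned. Every animal is a separate outbred individual, and library preparation is not separately replicated. Alternatives were another scaling or filter, other tools, other covariates, single blocks or generations and left-out libraries. Of 9 hepatocyte markers, Apoa1, Apoa2, Cyp3a11, Cyp7a1, Fgb and Ttr were not analysed here.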

Additional observations from a re-analysis of the deposited data

How the results depend on the processing

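No paired analysis was possible because each animal has its own number and no number is shared between groups. Depth limits the precision for Sqle most, with as few as 45 counts. The 4 members called between the sexes remained 4 in number with DESeq2, limma on VST, another scaling factor, no filter, a stricter filter or no generation term, became 3 with cell and fibre type scores or with the library block, and numbered 1, 0, 1, 1 and 0 within blocks 1 to 5, and 1, 0, 2, 1 and 0 within generations 17, 18, 19, 21 and 23, with fewer animals in each. The 2 members called between generations became 0 with cell and fibre type scores, 3 with a mean count of at least 100, 4 with total count alone and 0 within each block. Over all genes, 10362 were called between the sexes against 3698 to 5381 within blocks and 3859 to 4614 within generations, and 1423 between generations or 7.56% of them, against 0.294% to 0.967% within blocks. The interaction was called in 100 genes, and in 22 by DESeq2, 0 by limma, 37 with cell and fibre type scores and 45 with the stricter filter.

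The log2 sex difference took the opposite sign for Sqle with total count alone (-0.0178), in block 1 (-0.118), block 3 (-0.0863), generation 19 (-0.0204) and generation 23 (-0.0436), for Insig1 in block 3 (-0.0900), block 4 (-0.114) and generation 19 (-0.0108), for Hmgcs1 with cell and fibre type scores (0.0272), in block 5 (0.0304) and in generation 21 (0.0383), for Fdft1 in generation 21 (-0.000274) and generation 23 (-0.0150), and for Lss in block 2 (-0.151) and block 3 (-0.00467), and its difference in medians was -0.0134 in block 2. The same held for Cyp51 (1.8e-05) and Dhcr7 (0.0057) in block 5 and for Apoe (0.0634) in block 2. The positive relations between members numbered 14, and 22 with total count alone, 8 in block 1, 5 in block 2 and 4 in block 5. The negative ones numbered 6, and 2 with total count alone, 3 with 3 components removed, and 3, 1, 1, 1 and 1 within blocks 1 to 5. The sign turned for Hmgcs1 and Fdps with total count alone (0.0257), with components removed (0.154) and in blocks 3 (0.0667) and 4 (0.112), for Idi1 and Fdft1 in block 1 (0.0146) and for Hmgcs1 and Fdft1 in block 5 (0.135). Relations with gene lists numbered 60 positive, against 26, 28, 37, 27 and 25 within blocks 1 to 5, and 23 negative, against 13 in block 1, 7 in block 3, 13 in block 4 and 8 in block 5; Srebf2 and mitosis genes turned in block 1 (-0.0312). The cause was not tested.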
